A study of Mus musculus with 6 samples.

Results

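Mitochondrial carriers of the Slc25 family, together with the uncoupling protein gene Ucp3, were examined in the sciatic nerve of mice that lack Srebf-1c. Members were the genes whose symbol begins with Slc25a and a number, without the citrate carrier Slc25a1 and the carnitine-acylcarnitine carrier Slc25a20, plus Ucp3. The rule used names and no measured value, and it found 45 of the 22180 genes tested. Each of the 45 was measured by 1 probe set, the group of array probes that stands for a gene, and none was removed by a filter. Ucp2 was not analysed here.

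Carriers of this family sit mostly in the inner mitochondrial membrane and exchange nucleotides, phosphate, carboxylates, amino acids, vitamins and metals between the cytosol and the matrix. They supply the substrates of respiration, send ATP out to the cell and export the carbon used for lipid synthesis, while uncoupling proteins are known for letting protons pass back into the matrix. A peripheral nerve depends on them in its axons, in the Schwann cells that wrap and myelinate those axons, and in the muscle, fat and vessels that lie close to it. Srebf-1c, a product of Srebf1, is a transcription factor best known for driving genes of fatty acid synthesis.

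The samples were whole sciatic nerves dissected at 10 months of age from Srebf-1c KO mice and from wild-type littermates, 3 samples per genotype and 1 Affymetrix whole-transcript array per sample. Both groups shared age and tissue, and no treatment is named. Neither the deleted part of the gene nor the sex of the mice is stated, and the labels do not say that each sample came from a different mouse. P-values thus reflect how far these samples vary, and some of that variation may be technical.

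The targeted gene Srebf1 read 9.53, 9.55 and 9.70 for wild type against 8.11, 8.06 and 8.04 for KO in log2 intensity, a difference of -1.52 ± 0.11 (SE, limma adjusted p = 0.0497). No other gene passed that test, and whether the probes of Srebf1 lie in the deleted part is not known. The call was marginal: no gene passed after quantile normalization, with arrays at 1 median, with either tissue score held equal, or without any one of the arrays other than KO replicate 2. Array medians ran from 115.5 to 122.6 in intensity units. Of 12 genes listed for myelinating Schwann cells 9 were measured, and all 9 lay at or above the 88.8th percentile of intensity. Markers of neighbouring tissue were also present and uneven between arrays. The skeletal muscle score, the average over 20 marker genes of how far each lay from its own mean on the log2 scale, was 0.81, -0.89 and -0.27 for wild type against 0.34, -0.34 and 0.34 for KO (in the order of replicates 1, 2 and 3, as for all values by array). The adipocyte score, over 13 measured genes of 15 listed, was -0.78, -0.33 and 1.49 for wild type against -0.79, 1.36 and -0.95 for KO. No marker in either list was near 0, the lowest mean intensities being 274 and 284. The muscle markers did not all rank the arrays alike, so an equal score need not mean equal muscle content. A neuron score, over 7 genes, was also uneven, at 0.85, -0.41 and -0.65 for wild type against -0.49, 0.34 and 0.36 for KO. No slope was fitted on it. In whole tissue, fewer cells of a type and less RNA per cell cannot be told apart.

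No carrier gene passed the test between genotypes. Of the 45 carriers, 0 had a limma adjusted p under 0.05, the lowest being 0.850, and 0.00451% of all genes passed. At an unadjusted limma p under 0.05 there were 3 carriers, Slc25a37, Slc25a44 and Slc25a48, against 5.83% of all genes. Of these 3, 1 was higher (2.34% of all genes) and 2 were lower in KO (3.49% of all genes). An unmoderated analysis of variance, the test named in the series' design text, gave 0 after adjustment and 2 before it, without Slc25a48. The study's criterion joins a 1.5-fold change with a p under 0.05 before adjustment. Applied here to the limma p, it singled out 1 carrier, Slc25a48, and 1.19% of all genes, or 0.640% counting only those higher in KO. With the p of the analysis of variance it singled out 0 carriers and 138 genes, against 265 genes with the limma p. Below, the criterion is used with the limma p unless stated otherwise. Means differed by 1.5-fold or more in 2 carriers, Slc25a48 and Ucp3, and in 2.02% of all genes. KO and wild-type values did not overlap in 3 carriers, against 12.3% of all genes, with KO above in 1 (4.08% of all genes) and below in 2 (8.21% of all genes). None of these counts sets the carriers apart from the other genes on the array.

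The differences were small and ran in both directions. Of the 45 carriers, 26 had a higher and 19 a lower mean in KO, where 43.1% of all genes had a higher mean. The median log2 difference, KO minus wild type, was 0.017 for carriers and -0.032 for all genes. Without wild-type replicate 1 the carriers split into 18 higher and 27 lower, with a median of -0.019. The 95% interval of the difference lay within 1.5-fold in either direction for 29 carriers and within 2-fold for 42. It reached past 2-fold for Slc25a48, Ucp3 and Slc25a18, all with higher means in KO. Its width ran from 0.503 log2 units in Slc25a32 to 1.60 in Slc25a12, so the arrays do not bound every carrier equally well.

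**Figure D1:**
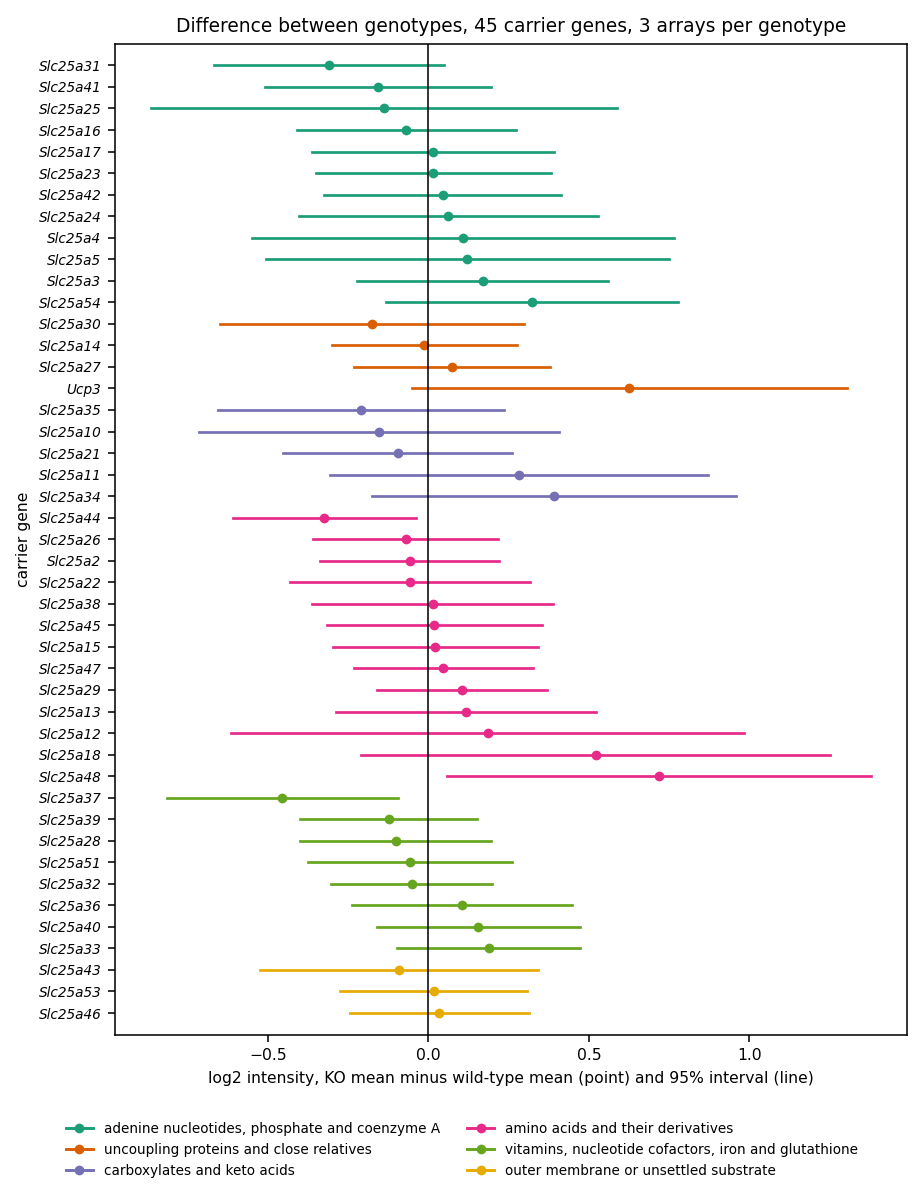
Log2 difference between genotypes (point) with its 95% interval from limma (line) for 45 carrier genes, coloured by substrate group; 3 arrays per genotype. Intervals of 42 genes include 0, and those of Slc25a37, Slc25a44 and Slc25a48 do not before adjustment over all genes.

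Carriers of adenine nucleotides, phosphate and coenzyme A formed a group of 12, of which 8 had a higher and 4 a lower mean in KO. In that group 0 passed the limma test on all arrays, before or after adjustment. Slc25a4 encodes the ADP/ATP exchanger known from heart and skeletal muscle. It read 11.23, 10.42 and 10.97 for wild type against 11.42, 10.55 and 10.98 for KO in log2 intensity. Replicate 2 was the lowest array of each genotype, and the groups overlapped over almost their whole range. The difference was 0.11 ± 0.28 (SE), with a 95% interval of -0.55 to 0.76 and a limma adjusted p = 0.975. Its sign was not stable: without wild-type replicate 2 the difference was -0.12, and without KO replicate 1 it was -0.11.

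Slc25a5 encodes the ADP/ATP exchanger of most other cells, and its probes may also measure its many processed pseudogenes. Log2 intensities were 10.50, 10.83 and 11.58 for wild type against 10.95, 11.24 and 11.08 for KO. The wild-type arrays alone spanned the range of all 6, with KO between them. The difference was 0.12 ± 0.27 (SE, 95% interval -0.51 to 0.75, limma adjusted p = 0.970), and it turned to -0.11 without wild-type replicate 1. The 2 exchangers thus ordered the wild-type arrays differently: replicate 1 was the highest for Slc25a4 and the lowest for Slc25a5.

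Slc25a3 carries the phosphate that ATP synthase needs, and it read 10.80, 10.60 and 11.05 for wild type against 11.19, 10.80 and 10.97 for KO. The groups overlapped, with a difference of 0.17 ± 0.17 (SE, 95% interval -0.22 to 0.56, limma adjusted p = 0.917). Slc25a31, an ADP/ATP exchanger known from the testis, was dim here, in the 21.8th percentile of intensity. The arrays gave 6.14, 5.98 and 5.69 for wild type against 5.50, 5.75 and 5.63 for KO. Only KO replicate 2 lay above the lowest wild-type array, and the difference was -0.31 ± 0.15 (SE, limma adjusted p = 0.867). Slc25a41, of the ATP-magnesium/phosphate carriers, was as dim and stood at 6.15, 5.77 and 5.71 for wild type against 5.72, 5.65 and 5.79 for KO, where wild-type replicate 1 alone lay clear of the other arrays. Slc25a54 was the dimmest carrier, in the 14.7th percentile, at 5.15, 4.73 and 5.42 for wild type against 5.46, 5.25 and 5.56 for KO. Its difference of 0.32 ± 0.19 (SE) had a limma adjusted p = 0.877, and whether its signal lay above background was not tested.

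The other 6 genes of the group differed by -0.14 to 0.062, with limma adjusted p of 0.970 or more. Slc25a23, Slc25a24 and Slc25a25 are calcium-regulated ATP-magnesium/phosphate carriers, Slc25a42 carries coenzyme A, Slc25a17 is a peroxisomal carrier of cofactors, and Slc25a16 is a relative of the coenzyme A carrier. Slc25a25 was the least even of them, at 8.15, 7.27 and 8.42 for wild type against 8.16, 7.66 and 7.60 for KO. Its lowest and highest arrays were both wild type.

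Among uncoupling proteins and their close relatives 4 genes were measured, 2 with a higher and 2 with a lower mean in KO, and 0 passed the limma test on all arrays, before or after adjustment. Ucp3, the uncoupling protein known from skeletal muscle and a known target of fatty acid signalling, had one of the largest differences of all carriers. It read 9.12, 8.88 and 9.27 for wild type against 10.39, 9.26 and 9.51 for KO in log2 intensity. KO replicate 1 stood far above every other array, while KO replicate 2 lay below the highest wild-type array. The difference was 0.63 ± 0.29 (SE), or 1.54-fold, with a 95% interval of -0.052 to 1.30 and a limma adjusted p = 0.865. The difference was smaller without KO replicate 1, at 0.29, and larger without KO replicate 2, at 0.86, where Ucp3 had an unadjusted limma p under 0.05 and met the study's criterion. At an equal muscle score it was 0.57, but the markers in that score disagreed on KO replicate 1. That array was the highest of the 6 for Myh1, at 12.60, and the lowest for Myh7, at 6.84. An equal score thus need not hold muscle content equal.

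The relatives of the uncoupling proteins were nearly level. Slc25a30, a carrier known from the kidney, stood at 8.76, 8.72 and 9.24 for wild type against 8.67, 9.03 and 8.49 for KO. The highest array was wild-type replicate 3 and the next was KO replicate 2, which are also the arrays with the highest adipocyte scores. The difference was -0.18 ± 0.20 (SE, limma adjusted p = 0.934). The brain-type relatives Slc25a14 and Slc25a27 had differences of -0.012 ± 0.12 (SE) and 0.073 ± 0.13 (SE), with 95% intervals of -0.30 to 0.28 and -0.23 to 0.38.

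Carriers of carboxylates and keto acids, grouped with the relatives Slc25a34 and Slc25a35 whose substrates are unsettled, numbered 5. Of these 5, 2 had higher and 3 lower means in KO. On all arrays 0 passed the limma test, before or after adjustment. Slc25a11 exchanges oxoglutarate for malate in the malate-aspartate shuttle. The arrays gave 11.31, 10.64 and 11.08 for wild type against 11.75, 10.99 and 11.14 for KO. KO replicate 1 was again the highest array and wild-type replicate 2 the lowest, with the other 4 between. The difference was 0.28 ± 0.25 (SE, limma adjusted p = 0.906) and shrank to 0.055 without KO replicate 1 and to 0.098 without wild-type replicate 2. Slc25a34, a relative with an unsettled substrate, stood at 6.66, 6.24 and 6.10 for wild type against 7.05, 6.26 and 6.87 for KO. KO replicates 1 and 3 lay above every wild-type array and KO replicate 2 lay among them, and the difference was 0.39 ± 0.24 (SE, limma adjusted p = 0.884).

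Slc25a35, another relative of unsettled substrate, stood at 8.96, 9.03 and 9.48 for wild type against 8.73, 9.21 and 8.91 for KO. Its difference of -0.21 ± 0.19 (SE, limma adjusted p = 0.907) was -0.049 without wild-type replicate 3. Slc25a10, the dicarboxylate carrier that exchanges malate and succinate for phosphate and is known from fat and liver, stood at 8.46, 9.13 and 9.42 for wild type against 8.87, 8.78 and 8.91 for KO. Wild type spanned 0.96 log2 units and KO 0.13. The remaining gene of the group, the oxodicarboxylate carrier Slc25a21, differed by -0.095 ± 0.15 (SE).

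Carriers of amino acids and their derivatives were the largest group, with 13 genes, 9 with a higher and 4 with a lower mean in KO. None passed the adjusted limma test, and 2 had an unadjusted p under 0.05. Slc25a48, for which a role in choline transport has been described, had the largest difference of all 45 carriers. Log2 intensities were 7.03, 7.08 and 8.003 for wild type against 7.79, 8.27 and 8.21 for KO, or 7.37 ± 0.55 (SD, n = 3) in wild type and 8.09 ± 0.26 (SD, n = 3) in KO. Wild-type replicate 3 lay above KO replicate 1, so the groups overlapped. The difference was 0.72 ± 0.28 (SE), or 1.64-fold, with a 95% interval of 0.057 to 1.38 and a limma adjusted p = 0.850. It ran from 0.55 without wild-type replicate 1 to 1.03 without wild-type replicate 3. The study's criterion was no longer met by Slc25a48 without wild-type replicate 1, wild-type replicate 2, KO replicate 2 or KO replicate 3, nor in the unmoderated analysis of variance or with array weights.

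Slc25a44, a carrier of branched-chain amino acids known from brown fat, had lower values in KO with no overlap. It read 8.86, 8.65 and 8.71 for wild type against 8.30, 8.49 and 8.46 for KO, or 8.74 ± 0.11 (SD, n = 3) in wild type and 8.42 ± 0.098 (SD, n = 3) in KO. The gap between the lowest wild-type and the highest KO array was 0.16. The difference was -0.32 ± 0.12 (SE), or 0.799 of the wild-type level, with a 95% interval of -0.61 to -0.038 and a limma adjusted p = 0.850. With each array left out in turn it stayed between -0.37 and -0.26, and at an equal muscle score it was -0.34. The unadjusted limma p of Slc25a44 was no longer under 0.05 without wild-type replicate 1, wild-type replicate 3, KO replicate 1 or KO replicate 3. The same held with the replicate number as a block and after quantile normalization.

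Slc25a18, a glutamate carrier known from astrocytes, stood at 7.46, 6.86 and 6.21 for wild type against 7.12, 7.66 and 7.31 for KO. The wild-type arrays spread over more than 1 log2 unit, and replicate 1 lay above 2 of the 3 KO arrays. The neuron score ordered the wild-type arrays in the same way and was also lowest on replicate 1 among KO. That likeness was seen afterwards and was not tested. The difference was 0.52 ± 0.31 (SE, 95% interval -0.21 to 1.25, limma adjusted p = 0.877) and was 0.20 without wild-type replicate 3. Without wild-type replicate 1 it was 0.83, and Slc25a18 was then the 1 carrier that met the study's criterion. Slc25a12, the aspartate-glutamate carrier of muscle and nerve cells, had the widest interval of all carriers. It read 11.65, 10.52 and 11.05 for wild type against 11.81, 10.85 and 11.13 for KO, the order of arrays seen in Slc25a4, and the difference was 0.19 ± 0.34 (SE, 95% interval -0.61 to 0.98).

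The other 9 genes of the group differed by -0.071 to 0.12, with limma adjusted p of 0.929 or more. Slc25a13, the aspartate-glutamate carrier known from the liver, stood at the upper end with 0.12 ± 0.17 (SE). Slc25a26, which brings the methyl donor S-adenosylmethionine into mitochondria, stood at the lower end with -0.071 ± 0.12 (SE). Slc25a38, the carrier known for bringing in glycine for haem synthesis, differed by 0.014 ± 0.16 (SE), and the glutamate carrier Slc25a22 by -0.056 ± 0.16 (SE). The ornithine carriers Slc25a15 and Slc25a2 stood at 0.022 ± 0.14 (SE) and -0.058 ± 0.12 (SE), and the basic amino acid carrier Slc25a29 at 0.10 ± 0.11 (SE). Slc25a45 and Slc25a47 stood at 0.018 ± 0.14 (SE) and 0.047 ± 0.12 (SE).

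Carriers of vitamins, nucleotide cofactors, iron and glutathione numbered 8, with 3 higher and 5 lower means in KO and 0 past the adjusted limma test, with 1 at an unadjusted p under 0.05. Slc25a37, mitoferrin 1, imports iron for haem and iron-sulphur clusters, and it had the smallest p of all carriers. Log2 intensities were 10.01, 10.12 and 9.71 for wild type against 9.50, 9.65 and 9.33 for KO, or 9.95 ± 0.21 (SD, n = 3) in wild type and 9.49 ± 0.16 (SD, n = 3) in KO. All KO arrays lay below all wild-type arrays, but KO replicate 2 and wild-type replicate 3 were only 0.066 apart. The difference was -0.45 ± 0.15 (SE), or 0.730 of the wild-type level, with a 95% interval of -0.81 to -0.094 and a limma adjusted p = 0.850. It stayed between -0.57 and -0.37 with each array left out in turn. At an equal muscle score it was -0.44 and at an equal adipocyte score -0.46. The unadjusted limma p of Slc25a37 was no longer under 0.05 without wild-type replicate 1, wild-type replicate 2 or KO replicate 3.

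Slc25a28, mitoferrin 2, the paralogue active outside the erythroid lineage, did not share that separation. It stood at 10.47, 10.30 and 10.42 for wild type against 10.45, 10.26 and 10.17 for KO, with overlapping groups and a difference of -0.10 ± 0.13 (SE, 95% interval -0.40 to 0.20, limma adjusted p = 0.939). The difference between the mitoferrins was not tested. Slc25a33, a pyrimidine nucleotide carrier, was the 1 carrier with all KO arrays above all wild-type arrays. The arrays gave 7.33, 7.23 and 7.26 for wild type against 7.62, 7.37 and 7.40 for KO. Only 0.040 separated the nearest arrays, and the difference was 0.19 ± 0.12 (SE, limma adjusted p = 0.887).

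Slc25a39 and Slc25a40 carry glutathione into mitochondria, and their means differed in opposite directions. Slc25a39 stood at 9.92, 9.97 and 9.78 for wild type against 9.78, 9.84 and 9.68 for KO, a difference of -0.12 ± 0.12 (SE, limma adjusted p = 0.914). Slc25a40 stood at 8.83, 9.11 and 8.75 for wild type against 9.10, 8.99 and 9.08 for KO, a difference of 0.16 ± 0.13 (SE, limma adjusted p = 0.903). Both had overlapping groups. The folate carrier Slc25a32, the NAD carrier Slc25a51 and the pyrimidine nucleotide carrier Slc25a36 differed by -0.058 to 0.11, and Slc25a32 was the most even carrier, with all 6 arrays within 0.12 of each other.

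The last 3 genes were Slc25a46, Slc25a43 and Slc25a53, the first an outer membrane protein and the others without a settled substrate. Slc25a46 acts in mitochondrial fission and lipid handling, and its loss in people causes optic atrophy with axonal neuropathy. It read 10.45, 10.32 and 10.57 for wild type against 10.51, 10.43 and 10.49 for KO. All arrays lay within 0.25 of each other, the difference was 0.034 ± 0.12 (SE), and its 95% interval of -0.24 to 0.31 excludes a 1.5-fold change in either direction. Slc25a43 and Slc25a53 differed by -0.091 ± 0.18 (SE) and 0.017 ± 0.12 (SE).

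**Figure D2:**
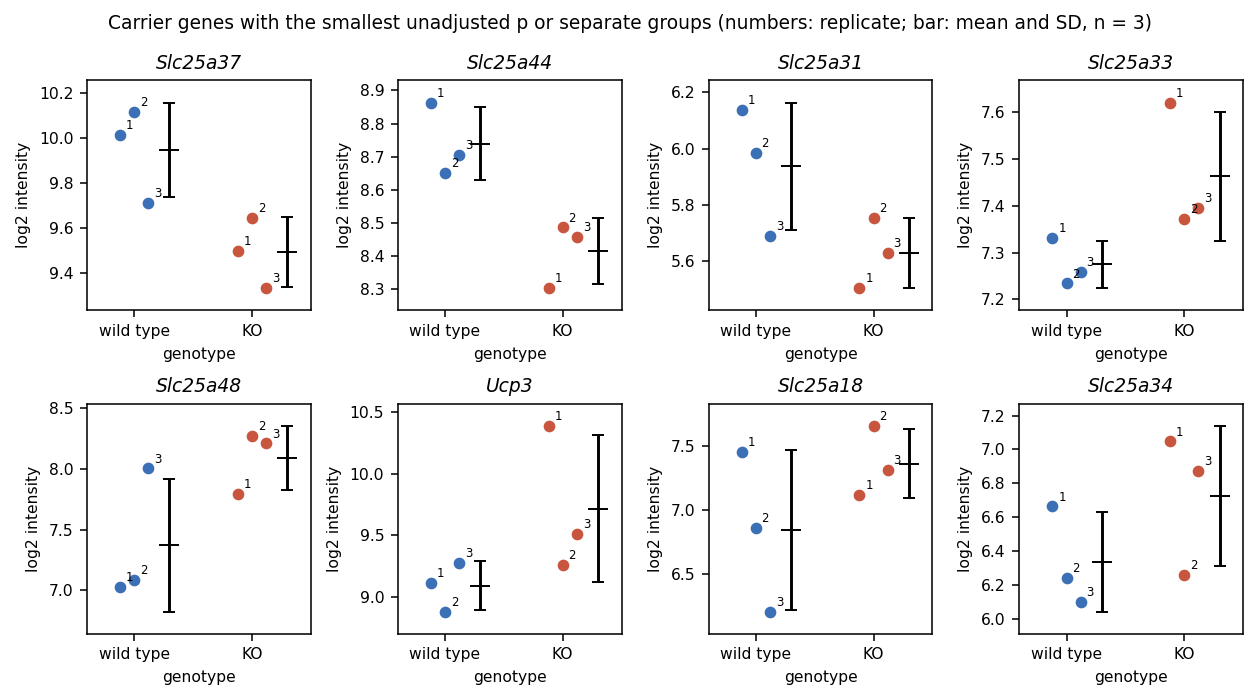
Log2 intensity on each array for 8 carrier genes picked from those with small unadjusted p or separate groups. Numbers mark replicates and the bar shows the mean and SD of 3 arrays. Slc25a54, whose unadjusted p was smaller than that of Slc25a34, is not shown. Groups are separate in Slc25a37, Slc25a44 and Slc25a33, and KO replicate 1 stands alone in Ucp3.

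Several carriers varied widely between arrays. Over all 6 arrays, 7 carriers ranged over at least 2-fold (15.6%, against 13.5% of all genes), namely Slc25a48, Ucp3, Slc25a18, Slc25a11, Slc25a12, Slc25a5 and Slc25a25. In Slc25a48 and Slc25a11 neither genotype alone spanned 2-fold. A pattern with KO replicate 1 highest and wild-type replicate 2 lowest was held by 6 carriers, Slc25a3, Slc25a4, Slc25a11, Slc25a12, Slc25a33 and Ucp3, or 13.3% against 4.05% of all genes. Wild-type replicate 3 highest and replicate 1 lowest was the pattern of 5 others, Slc25a5, Slc25a10, Slc25a17, Slc25a24 and Slc25a36, or 11.1% against 3.67% of all genes. Both patterns were picked after the values were seen, and genes on the same arrays are not independent, so the shares are a description.

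**Figure D3:**
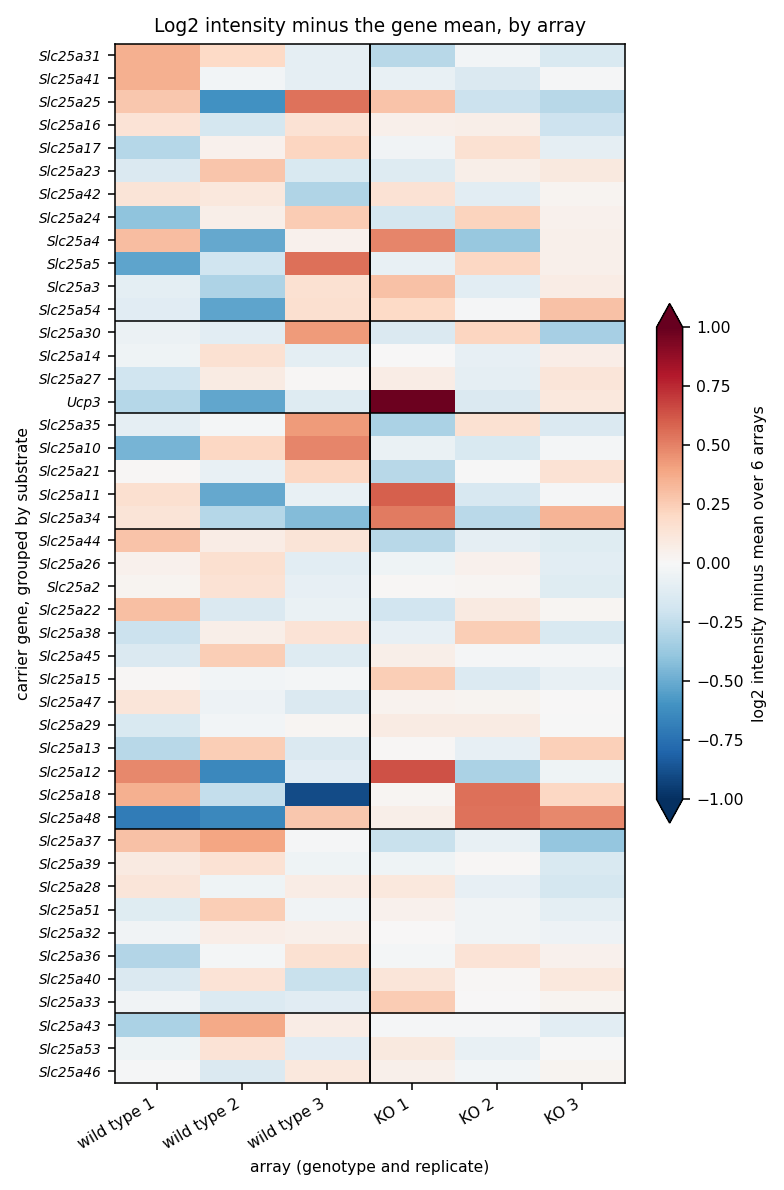
Log2 intensity of 45 carrier genes on 6 arrays, each minus the gene's mean, with colour from -1 to 1 and lines between substrate groups. KO replicate 1 and wild-type replicate 2 hold the highest and lowest values of Ucp3, Slc25a4, Slc25a11 and Slc25a12.

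Carrier values were also set against the tissue scores, and no carrier passed the adjusted test on either. Counts before adjustment lay near the share of all genes. Fitted beside genotype over all genes, the slope on the skeletal muscle score gave 0 of 45 carriers with a limma adjusted p under 0.05 (0% of all genes) and 4 with an unadjusted p under 0.05 (10.2% of all genes). On all 6 arrays, with genotype as the only other term, the slope of Slc25a12 was 0.70 ± 0.18 (SE) log2 units per unit of score (limma adjusted p = 0.353). Slc25a4 followed at 0.54 ± 0.16 (SE) and Slc25a11 at 0.43 ± 0.17 (SE). At an equal muscle score the KO difference of Slc25a12 was 0.026 and that of Slc25a4 was -0.015. Slc25a43 ran the other way, with a slope of -0.35 ± 0.11 (SE), and Slc25a34 had one of 0.41 ± 0.17 (SE).

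On the adipocyte score 0 of 45 carriers had a limma adjusted p under 0.05, against 0.591% of all genes, and 5 had an unadjusted p under 0.05, against 8.40% of all genes. Slc25a30 had a slope of 0.22 ± 0.060 (SE, limma adjusted p = 0.296), Slc25a35 of 0.20 ± 0.060 (SE), Slc25a5 of 0.26 ± 0.091 (SE) and Slc25a48 of 0.27 ± 0.100 (SE). Slc25a34 was the 1 of these 5 with a negative slope, -0.26 ± 0.074 (SE). At an equal adipocyte score the KO difference of Slc25a48 was 0.79. The score itself rests on wild-type replicate 3 and KO replicate 2, which lie far above the other 4 arrays. Without wild-type replicate 3 the slope of Slc25a48 was 0.11 and that of Slc25a5 was 0.11.

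**Figure D4:**
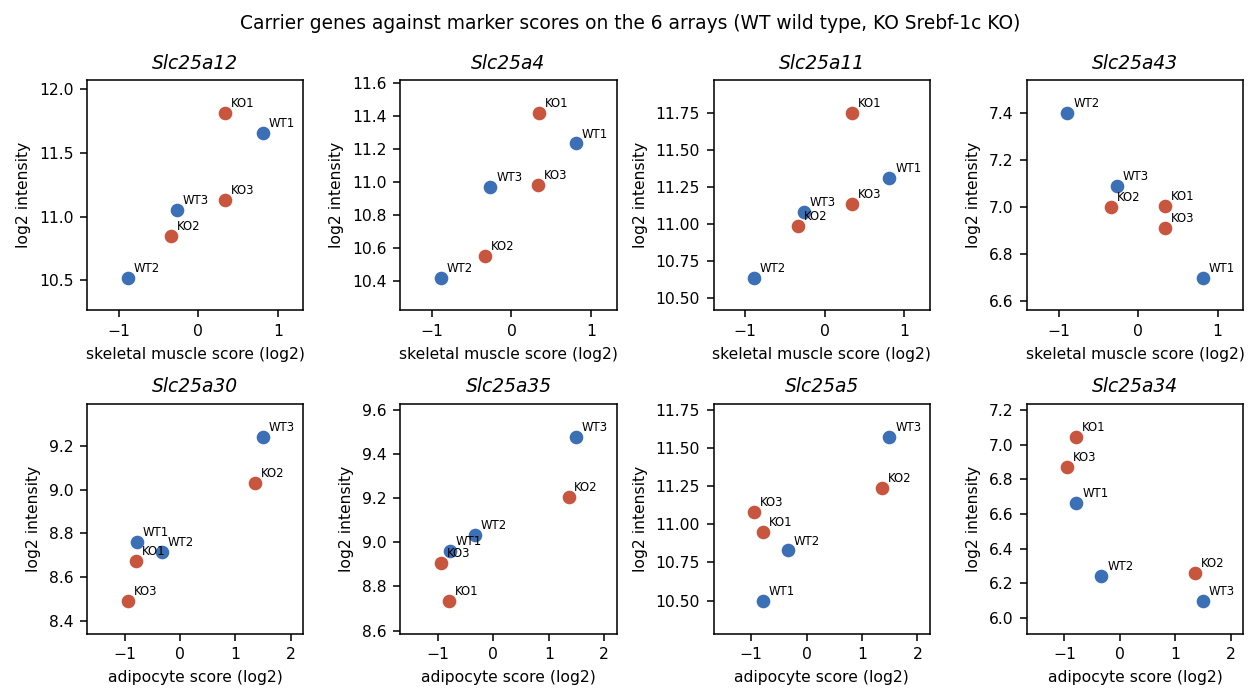
Log2 intensity of 8 carrier genes against the skeletal muscle score (top) and the adipocyte score (bottom) on the 6 arrays, wild type in blue and KO in red. Slc25a12 and Slc25a4 are lowest on wild-type replicate 2, the array with the lowest muscle score, and Slc25a30 is highest on the 2 arrays with the highest adipocyte score.

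Promoter letters were searched for motifs of factors that act on lipid and mitochondrial genes. The windows, from RefSeq on GRCm38.p6, hold 250 bases before to 50 bases after a start site, and 35 of the 45 carriers had one. Slc25a37 and Slc25a44, the carriers with the smallest unadjusted p, had no window and were not searched. The sterol regulatory element, searched as TCACNCCAC on both strands, was in the window of 1 carrier, Slc25a18 (2.86%, against 1.43% of 16990 genes with a window). The E-box CACGTG, which SREBP proteins can also bind, was in 6 (17.1%, against 9.19%), namely Slc25a13, Slc25a14, Slc25a15, Slc25a31, Slc25a33 and Slc25a36. The NRF1 site and TCAAGGTCA, the site of oestrogen-related receptors, were in 0 carrier windows, against 1.49% and 0.365% of genes. Letters that match are a description and do not show a bound site. Carriers with an E-box had KO differences of both signs: -0.31 in Slc25a31, -0.012 in Slc25a14, 0.022 in Slc25a15, 0.11 in Slc25a36, 0.12 in Slc25a13 and 0.19 in Slc25a33.

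Windows of 4 carriers are printed 5′ to 3′ on the strand of the gene, with matches in capitals. Slc25a18 is given for its sterol regulatory element, read on the other strand and starting 10 bases before the start site. Slc25a33 and Slc25a31 are given for an E-box starting 8 and 93 bases before the start site. Slc25a48, the carrier that met the study's criterion with the limma p, holds neither.
Slc25a18, chr6:120773518-120773817, plus strand: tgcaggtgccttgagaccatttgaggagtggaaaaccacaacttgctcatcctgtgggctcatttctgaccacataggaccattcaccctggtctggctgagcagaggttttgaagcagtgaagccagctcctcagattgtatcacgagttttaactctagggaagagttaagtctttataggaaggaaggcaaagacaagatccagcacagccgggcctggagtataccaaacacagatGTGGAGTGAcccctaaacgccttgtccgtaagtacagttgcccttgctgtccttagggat
Slc25a33, chr4:149774218-149774517, minus strand: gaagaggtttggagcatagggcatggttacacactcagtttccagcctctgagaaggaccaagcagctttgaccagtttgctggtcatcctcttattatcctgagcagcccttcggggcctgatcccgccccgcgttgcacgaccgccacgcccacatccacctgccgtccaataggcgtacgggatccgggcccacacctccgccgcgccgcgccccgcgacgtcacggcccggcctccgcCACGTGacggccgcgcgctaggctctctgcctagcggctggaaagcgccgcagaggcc
Slc25a31, chr3:40708621-40708920, plus strand: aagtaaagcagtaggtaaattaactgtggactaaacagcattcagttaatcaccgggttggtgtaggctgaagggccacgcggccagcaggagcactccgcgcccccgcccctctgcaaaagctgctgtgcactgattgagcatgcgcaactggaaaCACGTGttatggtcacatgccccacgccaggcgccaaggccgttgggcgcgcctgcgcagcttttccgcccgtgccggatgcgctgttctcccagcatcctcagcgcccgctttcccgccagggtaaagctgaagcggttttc
Slc25a48, chr13:56438105-56438404, plus strand: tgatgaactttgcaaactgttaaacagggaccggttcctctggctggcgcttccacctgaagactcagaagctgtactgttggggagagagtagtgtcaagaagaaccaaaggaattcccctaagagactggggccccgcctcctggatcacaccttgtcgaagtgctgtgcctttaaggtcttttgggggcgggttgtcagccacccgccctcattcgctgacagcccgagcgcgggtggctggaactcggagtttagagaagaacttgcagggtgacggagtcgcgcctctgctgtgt

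Other genes of mitochondrial transport gave a like picture. These were 32 measured genes outside the 45 carriers, covering calcium channels, porins, pyruvate and sideroflexin carriers, import proteins and others. Of the 32, 0 passed an adjusted limma p of 0.05 (0.00451% of all genes) and 0 had an unadjusted p under 0.05 (5.83% of all genes). Groups did not overlap in 2 of them, against 12.3% of all genes. Of the 32 genes, 13 had a higher and 19 a lower mean in KO, with a median difference of -0.043. A mean difference of 1.5-fold or more was seen in 1 gene, against 2.02% of all genes. That gene was Sfxn1, at -0.59 ± 0.51 (SE) and with overlapping groups, and it was named after its values were seen. Mpc1, a subunit of the pyruvate carrier, had the largest difference upward, at 12.12, 11.49 and 12.31 for wild type against 12.66, 12.18 and 12.23 for KO and a difference of 0.38 ± 0.24 (SE, limma adjusted p = 0.887). That difference was 0.14 without wild-type replicate 2, and 0.23 both without KO replicate 1 and with probe sets averaged. Micu3, a regulator of the calcium uniporter, was the 1 gene with all KO arrays above wild type (4.08% of all genes), at 0.17 ± 0.11 (SE). Mtch2, an outer membrane relative of the carriers, stood at 0.18 ± 0.14 (SE).

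Proteins that import carriers into mitochondria were the 1 group of several genes with all means on the same side: 9 of 9 genes had a lower mean in KO, with a median of -0.14, where 56.9% of all genes had a lower mean. The group was singled out after the values were seen, and genes on the same arrays are not independent, so the count is a description. After quantile normalization 7 of the 9 were lower and with arrays at 1 median 8 were, as they were without wild-type replicate 1, wild-type replicate 2 or KO replicate 3, and none passed the test. The median was -0.066 without KO replicate 2, -0.085 with array weights and -0.088 after quantile normalization. Tomm40, the channel of the outer membrane, had all KO arrays below wild type, as did 8.21% of all genes. It read 8.56, 8.47 and 8.56 for wild type against 8.37, 8.28 and 8.34 for KO, a difference of -0.20 ± 0.11 (SE, limma adjusted p = 0.870). The receptor Tomm20 stood at -0.19 ± 0.13 (SE) and Timm22, the channel that inserts carriers into the inner membrane, at -0.24 ± 0.19 (SE). Both had overlapping groups. With an array left out Tomm20 ran from -0.25 to -0.12, Timm22 from -0.43 to -0.094 and Mtch2 from 0.087 to 0.30.

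Among the carriers with lower means in KO, leaving out an array moved Slc25a41 between -0.24 and -0.019 and Slc25a30 between -0.33 and -0.0076, so that both came close to 0 without 1 wild-type array. Slc25a34 ran from 0.23 to 0.62, Slc25a54 from 0.14 to 0.48 and Slc25a31 from -0.43 to -0.21, each on 1 side of 0. Without KO replicate 2, Slc25a34 met the study's criterion beside Ucp3, as did 552 of 22180 genes. Without wild-type replicate 3, Slc25a5, Slc25a31 and Slc25a54 were among the carriers with an unadjusted limma p under 0.05. Slc25a10 was among them without wild-type replicate 1. No carrier passed after adjustment in these fits.

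**Figure D5:**
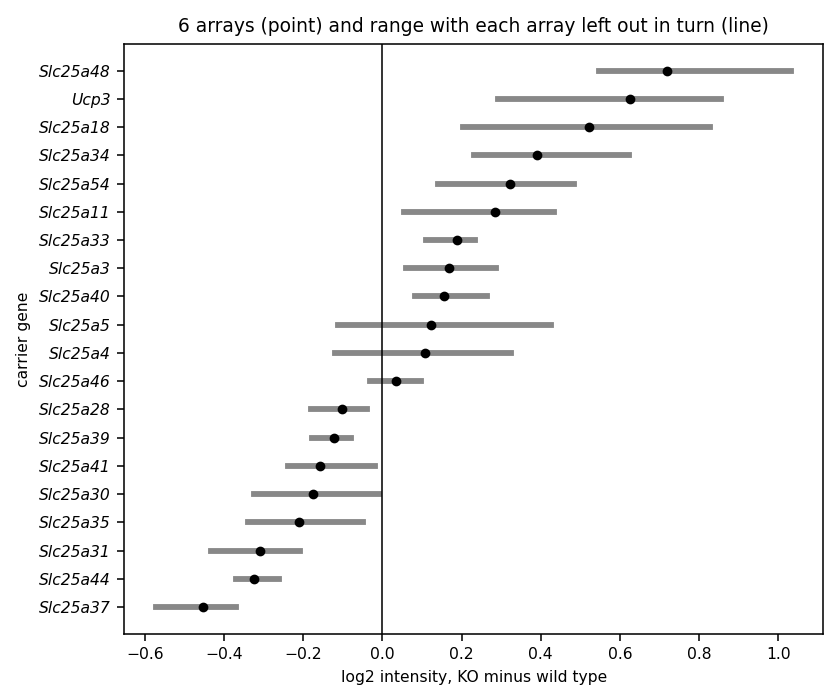
Log2 difference between genotypes on 6 arrays (point) and its range with each array left out in turn (line) for 20 named carrier genes. The ranges of Slc25a4, Slc25a5 and Slc25a46 cross 0, while Slc25a37 stays between -0.57 and -0.37.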

How the data were processed

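Probe set intensities were deposited on a linear scale for 6 arrays. According to the design text of the series, the authors worked in TAC and Partek and obtained each intensity from the Robust Multichip Average, which corrects background, normalizes across arrays and combines probes. That the scale is linear is inferred from values of 3.67 to 23738. The submitters' processing notes name the build mm8. Software versions are not stated. Groups follow sample titles and the genotype field, since the source field of KO samples reads wild type.

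Log2 was taken with no pseudocount and no filter on dim genes. Probe sets with 1 gene symbol were kept (23521 of 41077), with the brightest for each gene, which left 22180 genes. A probe set shared by Slc25a35 and Rangrf was left out. All 45 carriers matched RefSeq by Entrez identifier. Genes were fitted as KO minus wild type in R 4.3.3 (limma 3.58.1, lmFit and eBayes), two-sided, with Benjamini-Hochberg adjustment over all genes. Tests fitted 3 against 3 arrays. Intervals are 95% limits from that fit. Scores were added beside genotype for slopes. The code was checked on simulated data for its mean estimates of planted differences and slopes. No error rate or power is given from that check. Number of arrays limits precision.

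Values on every array are given for Slc25a3, Slc25a4, Slc25a5, Slc25a46 and Ucp3, for the 8 carriers with the smallest p in each direction, and for any other with adjusted p under 0.05 or separate groups. Slc25a10, Slc25a12 and Slc25a25 were added after their values were seen. Of related genes the 3 with the smallest p in each direction are named, and for slopes the 5 members with the smallest p. Members, lists and tests were chosen with earlier results of these data known.

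Alternatives were a replicate block, the methods' analysis of variance, an intensity trend with robust prior, array weights, dropping the dimmest 25% or 50% of genes, quantile normalization, arrays at 1 median, averaged probe sets, either score as a covariate and each array left out. Python 3.11.15, pandas 2.3.3, numpy 2.4.6 and matplotlib 3.10.9 were used.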

Additional observations from a re-analysis of the deposited data

How the results depend on the processing

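No alternative brought a carrier or a related gene past an adjusted limma p of 0.05, and for named genes 427 of 432 differences kept their direction. The lowest adjusted p of any carrier was 0.631, with array weights. Carriers meeting the study's criterion numbered 2 with the replicate block, 0 in the analysis of variance and 0 with array weights, and from 0 to 2 with an array left out, against 1 as reported. Over all genes that count was 265, and it ran from 89 without the dimmest 50% of genes to 552 without KO replicate 2. The median difference of the carriers was 0.079 after quantile normalization and 0.048 with arrays at 1 median, where the median of all genes was -0.0056 and -0.0010, and from -0.019 to 0.047 with an array left out. Slc25a4 turned to -0.015 with the muscle score as a covariate and ran from -0.12 to 0.33 with an array left out, Slc25a5 from -0.11 to 0.43 and Slc25a46 from -0.030 to 0.097. With the replicate block, which named Ucp3 beside Slc25a48 by the study's criterion, the slopes on the muscle score were -0.11 for Slc25a4, -0.24 for Slc25a11, 0.035 for Slc25a12, 0.038 for Slc25a34 and -0.56 for Slc25a43, so only the last kept its size or more, and that of Sfxn1 on the adipocyte score was 0.55 (limma adjusted p = 0.303). The causes were not tested. Over all genes, samples with the same replicate number did not deviate together (correlations of 0.12, 0.012 and -0.23). Not every sample correlated best with its own number. Slc25a4, Slc25a11 and Slc25a12 were nonetheless highest on replicate 1 and lowest on replicate 2 within each genotype. The muscle score was also lowest on replicate 2 of each genotype. That likeness was seen afterwards and was not tested. The labels give no ground for the block beyond the shared number. No scaling outside the deposited values could be checked, and signal over background was not measured, also for the dim carriers Slc25a54, Slc25a31 and Slc25a41.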

Other observations

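Ucp1, the uncoupling protein of brown fat, is outside the carriers described above and varied more between arrays than any of them. It read 6.27, 8.88 and 5.94 for wild type against 7.01, 7.39 and 5.96 for KO in log2 intensity. Wild-type replicate 2 stood far above the next array. Cidea, a lipid droplet protein that is also typical of brown fat, stood at 6.90, 8.98 and 7.57 for wild type against 7.40, 7.61 and 6.53 for KO, again with wild-type replicate 2 far above the rest. Of the other 4 brown fat markers listed, Elovl3 was also highest there, at 6.25, while Dio2, Zic1 and Lhx8 were not. The adipocyte score of that array was -0.33. Ucp1 had a KO difference of -0.24 ± 0.77 (SE, limma adjusted p = 0.979). Both genes were picked after their values were seen.

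Sfxn1, a sideroflexin that carries serine into mitochondria, had a slope on the adipocyte score of 0.64 ± 0.080 (SE, limma adjusted p = 0.0341). It was the 1 gene of mitochondrial transport past that adjusted test, which 0.591% of all genes passed. It stood at 8.97, 9.47 and 10.39 for wild type against 8.34, 10.05 and 8.68 for KO. The slope stayed between 0.58 and 0.69 with each array left out, where the adjusted p rose to between 0.0622 and 0.395.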
